A study of Mus musculus with 40 samples.

Results

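Agrp, Npy, Pomc and Cartpt, the messages of the 4 peptides by which the arcuate nucleus of the hypothalamus steers feeding, were followed through a study of astrocyte ribosomes. They were taken by symbol from a count table of 26792 genes, in which all 4 were found. The mice carried the Aldh1l1 eGFP-L10a transgene, which drives a tagged ribosomal protein from the promoter of Aldh1l1, an astrocyte gene. Ribosomes were pulled down by that tag from microdissected hypothalami (translating ribosome affinity purification, TRAP), giving a pull-down library, and what was not pulled down gave a supernatant library. The groups were sham-operated mice on chow (7 samples), sham-operated mice on high-fat diet (HFD, 6 samples) and orchiectomised mice on HFD (7 samples). Each group has that number of libraries in each fraction, 40 in all, and the diets lasted 4 weeks. All groups carried the transgene. The labels give neither age nor strain, and an orchiectomised group on chow was not analysed here, so orchiectomy was compared on HFD only. The labels do not say whether a sample number is 1 mouse or a pool, and p-values therefore measure the spread between these samples.

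Agrp and Npy are made together by one class of arcuate neurons, which drive eating when energy stores are low. Npy acts on the Y receptors and Agrp blocks the melanocortin receptors Mc3r and Mc4r. Pomc is made by a neighbouring class of neurons, where prohormone convertases cut it to alpha-MSH, an activator of the same melanocortin receptors that curbs eating. It is also made in the corticotrophs and melanotrophs of the pituitary. Cartpt encodes the CART peptides, which are found in many Pomc neurons and in other hypothalamic neurons. Leptin, the hormone of fat tissue, raises Pomc and lowers Agrp and Npy. In this nucleus the 4 genes are known as genes of neurons.

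The genes lie on 4 chromosomes (GRCm38, GENCODE M21 annotation). Npy (ENSMUSG00000029819) lies on chromosome 6 from 49822710 to 49829507, on the plus strand, with 4 exons. Pomc (ENSMUSG00000020660) lies on chromosome 12 from 3954951 to 3960642, on the plus strand, with 3 exons. Cartpt (ENSMUSG00000021647) lies on chromosome 13 from 99898489 to 99901091, on the minus strand, and its transcript Cartpt-201 has 3 exons. No other annotated gene overlaps these 3. Agrp (ENSMUSG00000005705) is annotated on chromosome 8 from 105566698 to 105637393, on the minus strand. That span holds 3 transcripts and overlaps 7 other genes. Its 5-exon transcript Agrp-201 runs from 105566698 to 105568298, where Gm38250 is annotated on the opposite strand. The estimated counts of Agrp were fractional in 33 of 40 libraries, and those of Npy, Pomc and Cartpt were whole in every library. Over all genes, 12.7% of the values above 0 carried decimals. No strand setting of the counting is named in the labels, so reads of Agrp and Gm38250 may not be told apart, and the part of the overlap in the values of Agrp was not tested.

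Windows of 250 bases from RefSeq promoter sequences on GRCm38.p6 are shown for Npy, Pomc and Cartpt, the 3 genes whose levels moved together across supernatants. Such sequences were matched for 3 of the 4 genes, and Agrp is named only. Capitals mark a TATA box core (TATAA), a cyclic AMP response element (TGACGTCA) or a GC box (GGGCGG), searched on both strands, and sequences run 5′ to 3′ on the gene's strand. The windows are chr6:49822460-49822709 for Npy, chr12:3954695-3954944 for Pomc and chr13:99900684-99900933 (minus strand) for Cartpt. Only that of Npy ends right at the gene start given above. That of Pomc ends a few bases before 3954951, and that of Cartpt lies within the gene's span, upstream of Cartpt-201.
Npy: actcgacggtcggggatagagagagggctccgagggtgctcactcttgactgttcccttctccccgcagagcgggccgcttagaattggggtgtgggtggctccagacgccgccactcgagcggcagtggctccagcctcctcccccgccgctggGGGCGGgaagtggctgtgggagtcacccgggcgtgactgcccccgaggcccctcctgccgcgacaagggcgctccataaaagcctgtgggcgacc
Pomc: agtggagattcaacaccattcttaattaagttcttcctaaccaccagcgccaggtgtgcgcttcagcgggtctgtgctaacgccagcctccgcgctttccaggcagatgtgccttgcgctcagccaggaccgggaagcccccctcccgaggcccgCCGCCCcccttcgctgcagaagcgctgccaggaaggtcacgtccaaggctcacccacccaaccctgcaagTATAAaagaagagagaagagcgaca
Cartpt: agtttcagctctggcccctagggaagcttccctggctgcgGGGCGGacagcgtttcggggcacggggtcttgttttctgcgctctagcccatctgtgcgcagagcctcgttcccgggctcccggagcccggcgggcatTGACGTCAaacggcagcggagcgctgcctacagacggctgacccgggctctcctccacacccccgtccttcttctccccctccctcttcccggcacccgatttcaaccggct
Each of the 3 windows holds 1 GC box, a match found in 32.7% of 32851 promoter windows. Pomc alone of the 3 has TATAA (22.8% of windows), and Cartpt alone has the full TGACGTCA (1.55% of windows), whose core TGACG, matching on both strands of that palindrome, occurs in 17.8%. The oestrogen receptor half-site GGTCA occurred once in Pomc and once in Cartpt (35.2% of windows). The androgen or glucocorticoid receptor half-site AGAACA (16.1%) and the STAT site TTCNNNGAA (7.02%) were found in none of the 3. These are matches of letters in short windows and no measure of binding.

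A pull-down held 7714834 to 20792175 counts in total and a supernatant 8739276 to 12931869. Aldh1l1 and Gfap, astrocyte genes, were higher in the pull-down by log2 fold changes of 4.89 ± 0.24 and 4.78 ± 0.15 (SE), and Snap25, a synaptic gene of neurons, was lower by 3.94 on that scale (−3.94 ± 0.15). The summed level of 14 neuron markers, all detected in every library, was 5192 to 7759 CPM (counts scaled to a common library size) in the supernatants and 774 to 1429 CPM in the pull-downs, so neuronal messages were depleted but present. Gm42418, an RNA gene that overlaps a ribosomal RNA repeat, took over 10% of the counts in 4 pull-downs (sham chow 8, sham HFD 1, orchiectomised 11 and 22). Sham HFD samples 1 and 20 stood apart by the pituitary hormone messages Gh and Prl, each above 0.5 CPM in both fractions of both samples. Results that rest on these samples are given with and without them.

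Levels were compared first, in the supernatant, which holds most of the neuronal message. Cartpt was the most abundant of the 4, with 102 ± 17.7 CPM (SD, n = 20), followed by Npy with 30.2 ± 6.45 CPM, Pomc with 24.5 ± 10.3 CPM and Agrp with 2.27 ± 0.876 CPM. The kit yields 1 tag near the 3′ end of each message, so tags were compared between genes without division by length. The kit and the counting can still capture genes unequally, and the part of this in the order of levels was not tested. Cartpt exceeded Npy and Pomc in 20 of 20 supernatants, and all 3 exceeded Agrp in 20 of 20. Npy exceeded Pomc in 16 of 20, so those neighbours overlap within their spread. Among 28 hypothalamic neuropeptide genes ranked by mean supernatant level, Cartpt was at rank 6, Npy at 15, Pomc at 16 and Agrp at 24, with Pmch, the melanin-concentrating hormone gene, at rank 1 (629 CPM). Counts behind the supernatant values were 13 to 39.9 for Agrp, 207 to 457 for Npy, 147 to 614 for Pomc and 688 to 1495 for Cartpt.

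In the pull-down the order changed. Cartpt had 31.1 ± 25.7 CPM and Pomc 30.5 ± 22.2 CPM (SD, n = 20), against 5.58 ± 1.99 CPM for Npy and 1.01 ± 1.36 CPM for Agrp. Cartpt exceeded Pomc in 9 of 20 pull-downs only, while Pomc exceeded Npy in 20 of 20. The ratio of Npy to Pomc within a library had a median of 1.35 (0.591 to 2.17) in the supernatants and of 0.218 (0.0499 to 0.574) in the pull-downs. Agrp rested on under 10 counts in 13 of 20 pull-downs, and on 3 or fewer in 2, orchiectomised samples 10 (2 counts) and 11 (0 counts), so pull-down values of Agrp were close to the limit of detection.

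**Figure D1:**
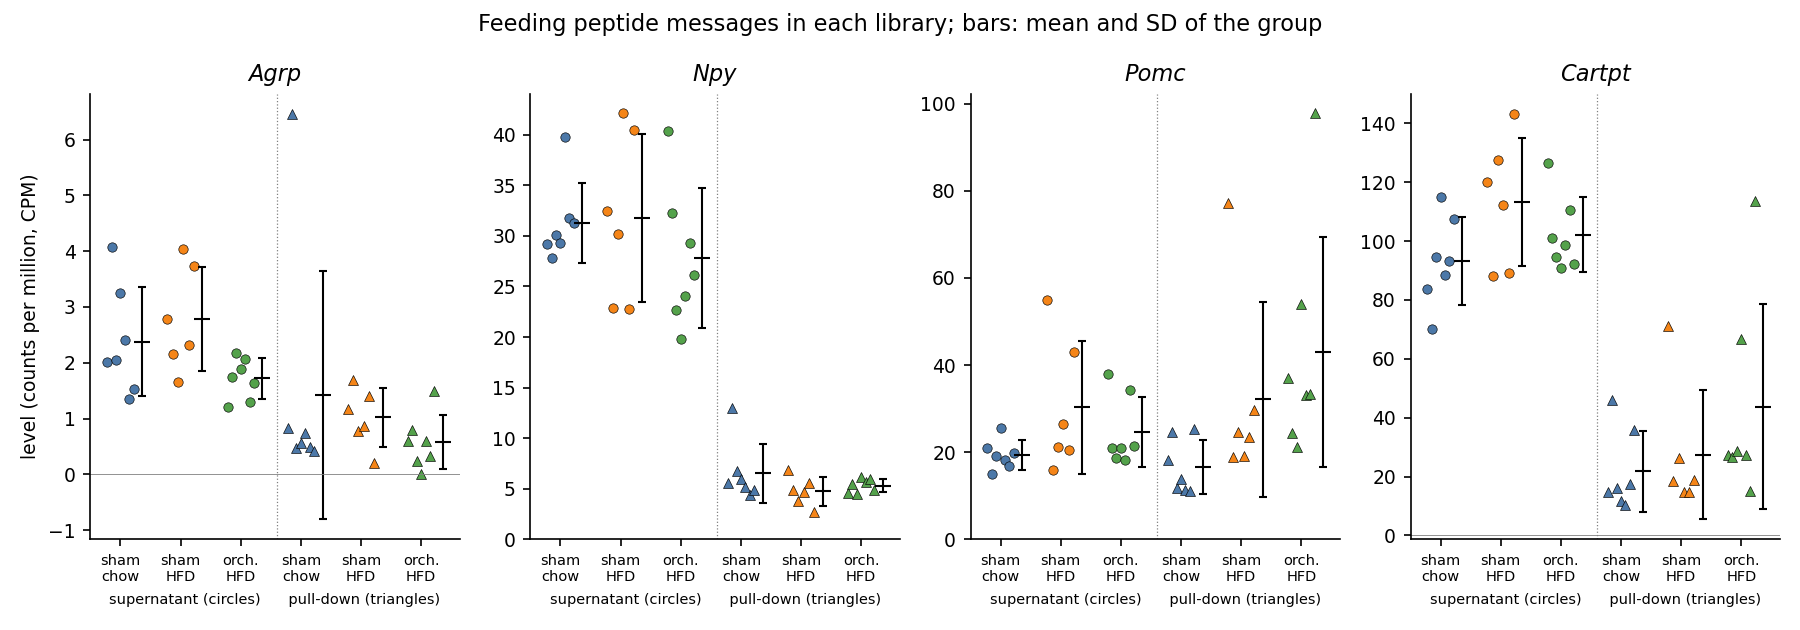
Levels of the 4 feeding peptide genes in each of the 40 libraries, in CPM on linear axes that differ between genes, by treatment group in the supernatant (circles) and the pull-down (triangles), with the mean and SD of each group as bars. Npy points of the 2 fractions do not overlap, Pomc points of the 2 fractions do, and single pull-downs stand high for Agrp (6.46 CPM), Npy (13.0 CPM), Pomc (77.2 and 97.9 CPM) and Cartpt (71.3 and 114 CPM).

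Whether the messages were depleted by the astrocyte pull-down was tested over all 40 libraries, averaged over the 3 groups. Npy fell in the pull-down by a log2 fold change of −2.47 ± 0.12 (SE; edgeR adjusted p = 1.33e-22), Cartpt by −1.80 ± 0.21 (edgeR adjusted p = 5.73e-10) and Agrp by −1.27 ± 0.29 (edgeR adjusted p = 0.000142). Pomc had a log2 fold change of 0.22 ± 0.19 (95% interval −0.15 to 0.58, edgeR adjusted p = 0.274). Thus 3 of the 4 passed, in a comparison where 86.8% of the 15629 genes tested did and 43.7% of those tested were called lower in the pull-down. Npy ranged from 19.8 to 42.1 CPM in the supernatants and from 2.73 to 13.0 CPM in the pull-downs, with no overlap, as for 37.3% of all genes tested. Scaling by totals without mitochondrial genes and Gm42418 moved the median of all genes from −0.01 to −0.37, and the share of called genes that were higher in the pull-down from 49.7% to 36.8%. It turned Pomc to −0.13 ± 0.20, which lies above that median, and left Npy at −2.83, Cartpt at −2.12 and Agrp at −1.62. Leaving out the 4 samples rich in Gm42418 also turned Pomc to −0.13 and took Agrp to −1.69 and Cartpt to −2.39, while without sham chow 8 alone Agrp stood at −1.62.

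The pull-down and supernatant libraries that carry the same sample number were also set side by side, as a description only, since the labels do not say that a number is 1 mouse. The pull-down level of Npy was 0.194 of the supernatant level at the median (0.0675 to 0.467) and below it in 20 of 20 numbers. That of Cartpt was 0.209 (0.103 to 1.23) and above the supernatant in 1 of 20, orchiectomised sample 22. That of Agrp was 0.332 (0 to 1.59) and above it in 1 of 20, sham chow sample 8. That of Pomc was 1.14 (0.539 to 4.59) and above it in 11 of 20, namely 2 of 7 chow, 4 of 6 HFD and 5 of 7 orchiectomised samples. The ratio of Pomc was higher than that of each of the other 3 genes in 20 of 20 numbers.

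The other hypothalamic neuropeptides give the scale for these changes. All 24 were tested and fell in the pull-down, the median of their log2 fold changes being −3.48 (−5.33 to −0.70), against a median of −0.01 over all genes tested. Gnrh1, the gonadotropin-releasing hormone gene (−5.33 ± 0.26), Sst, the somatostatin gene (−4.65 ± 0.16), and Adcyap1, the PACAP gene (−4.38 ± 0.13), changed most. The mean of Gnrh1 in the pull-down was 0.0717 CPM, where 3 counts stand for 0.149 to 0.376 CPM, so the size of its fall is uncertain. Only 16 of the 24 had enough counts to be tested in the fit of the pull-downs alone. The change of Pomc lay above those of all 24, that of Agrp above 23, that of Cartpt above 20 and that of Npy above 16. Avp, the vasopressin gene, was the only one of the 24 above Agrp (−0.70 ± 0.18). These positions are a description and were not tested.

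**Figure D2:**
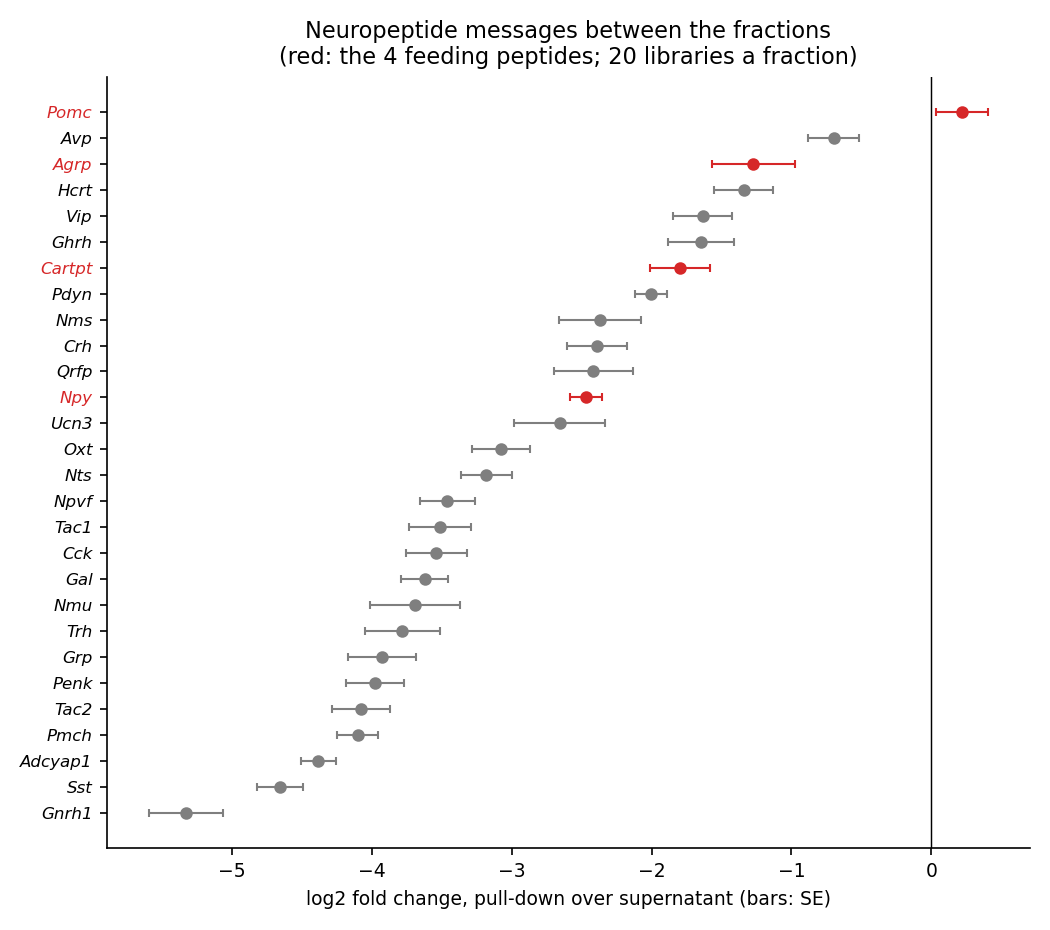
Log2 fold change between pull-down and supernatant with its SE for the 4 feeding peptide genes (red) and 24 other hypothalamic neuropeptide genes (grey points, black names), sorted, from 20 libraries a fraction. Pomc at 0.22 is the only one above 0 under this scaling (it stood at −0.13 when mitochondrial genes and Gm42418 were left out of the totals), and Agrp, Cartpt and Npy lie in the upper part of the range.

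Genes that serve these peptides were looked at in lists. Over all 15629 genes tested between the fractions, 6735 rose and 6826 fell (43.7%) in the pull-down. The counts below describe the lists and were not tested against that background. Of 13 genes of peptide processing and secretion, 10 fell and 3 rose in the pull-down. Pcsk2, the convertase that trims Pomc to the shorter melanocortins, fell (−3.14 ± 0.19), while Cpe, the carboxypeptidase that finishes them (3.28 ± 0.10), and Scg3, a granin of secretory granules (3.17 ± 0.14), rose. Of 9 receptors and cofactors tested (of 11 listed), 6 fell and 1 rose: the melanocortin receptor partner Mrap2 (−4.23 ± 0.13), the Y2 receptor Npy2r (−3.51 ± 0.17) and the melanocortin receptor Mc3r (−3.05 ± 0.28) fell most, and Sdc3, a syndecan that takes part in Agrp signalling, rose (2.06 ± 0.07). Of 16 genes of hormone and nutrient inputs, 8 rose and 8 fell, the largest being falls of the serotonin receptors Htr1b (−4.16 ± 0.15) and Htr2c (−3.66 ± 0.15) and of the cannabinoid receptor Cnr1 (−3.32 ± 0.16). Of 12 arcuate transcription factors tested (of 13 listed), 10 fell, led by Nhlh2 (−3.86 ± 0.11), Dlx1 (−3.33 ± 0.12) and Isl1 (−3.22 ± 0.17), and 1 rose. Of 7 genes tested that accompany Agrp in its neurons (of 8 listed), 6 fell, led by the GABA transporter Slc32a1 (−4.59 ± 0.11) and the GABA-making enzymes Gad1 (−3.16 ± 0.16) and Gad2 (−3.06 ± 0.16). Acvr1c, an activin-type receptor, was the 1 that rose (0.50 ± 0.07).

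The effect of 4 weeks of HFD was compared between sham groups, first in the supernatant. Pomc spanned 15.0 to 25.5 CPM on chow with a median of 19.1 CPM, and 16.0 to 54.9 CPM on HFD with a median of 23.8 CPM. The ranges overlap, and 3 of 6 HFD samples lay above every chow sample. The log2 fold change was 0.64 ± 0.25 (SE; edgeR adjusted p = 0.904). Cartpt spanned 70.2 to 115 CPM on chow (median 93.3) and 88.0 to 143 CPM on HFD (median 116), again with 3 of 6 HFD samples above every chow sample and a log2 fold change of 0.27 ± 0.13 (edgeR adjusted p = 0.904). Agrp spanned 1.34 to 4.07 CPM on chow and 1.65 to 4.03 CPM on HFD, with a log2 fold change of 0.21 ± 0.25. Npy spanned 27.8 to 39.7 CPM on chow and 22.8 to 42.1 CPM on HFD, with a log2 fold change of 0.01 ± 0.16 (95% interval −0.31 to 0.33). In bulk tissue, a change in the number of peptide neurons and a change in message per neuron cannot be told apart.

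No gene passed in that comparison: edgeR, DESeq2 and limma voom each called 0 of the genes tested (0% called), and with edgeR 1.41% of 14628 had an unadjusted p under 0.05, among them Pomc and Cartpt. The highest supernatant values of Pomc were those of sham HFD 1 (54.9 CPM) and sham HFD 20 (43.0 CPM). These are the samples that stood apart by Gh and Prl: Gh had 23 and 9 counts in their supernatants against 0 or 1 in the other 18, and Prl 24 and 15 counts against 0 to 2. In their pull-downs Gh had 251 and 246 counts, against 0 to 59 in the other 18. They did not stand apart by the other pituitary hormone genes: in the supernatants Cga, the shared subunit of the glycoprotein hormones, was at 5.91 and 3.45 CPM in samples 1 and 20 and at 1.62 to 11.2 CPM in the other 18, and Tshb, the thyrotropin subunit, at 1.52 and 0.958 CPM against 0.274 to 1.72 CPM. The whole pituitary list (12 of 13 genes in the table) summed to 29.3 and 22.8 CPM in these supernatants and to 17.4 to 37.0 CPM in the others. Tbx19, a factor of the pituitary cells that make Pomc, had 4 counts in each of the 2 supernatants (0 to 5 in the others) and 0 in both pull-downs, and Ghrhr was at 0 in all supernatants. Without the 2 samples, the supernatant level of Pomc on HFD was 16.0 to 26.4 CPM, and its log2 fold change against chow was 0.11 ± 0.20, that of Cartpt 0.15 ± 0.13 and that of Npy −0.09 ± 0.18. The next highest supernatants for Pomc, orchiectomised samples 2 (37.9 CPM) and 17 (34.3 CPM), had 0 counts of Gh.

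**Figure D3:**
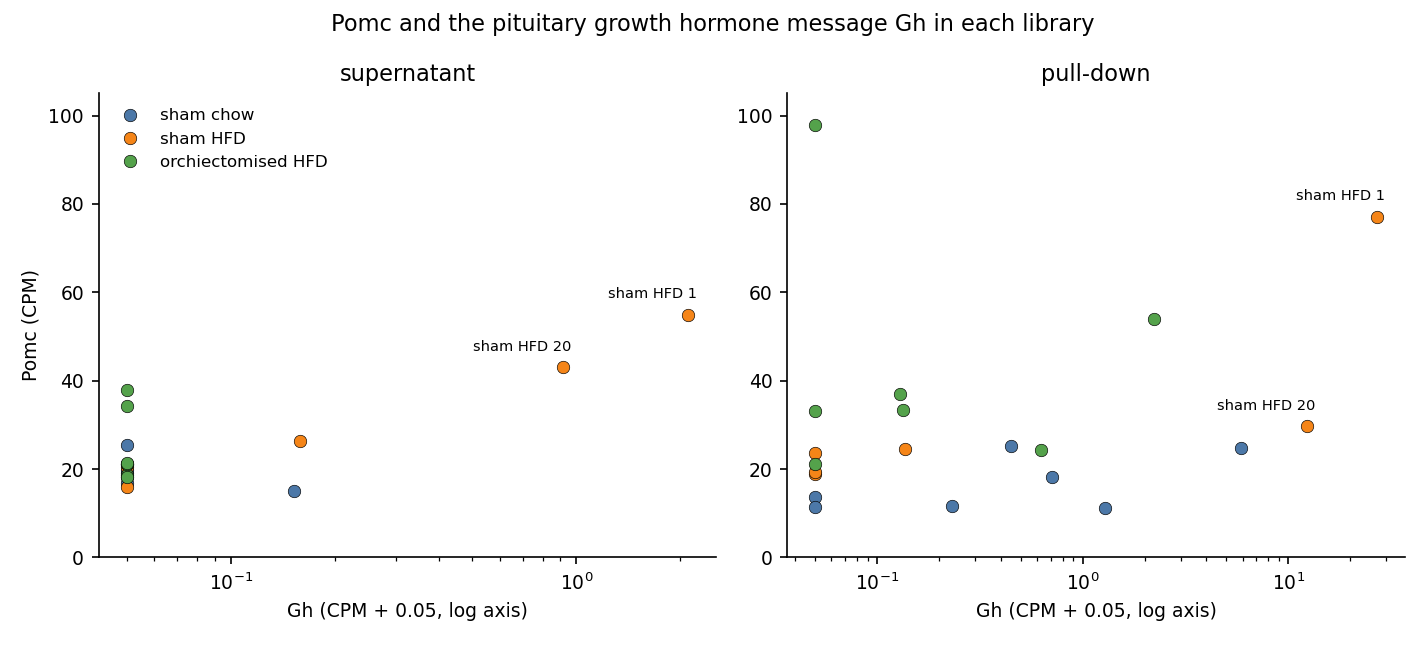
Pomc (CPM, linear axis) against the pituitary growth hormone message Gh (CPM plus 0.05, log axis) in each supernatant (left) and pull-down (right), coloured by treatment. Sham HFD samples 1 and 20 have the highest Gh in both fractions and the 2 highest supernatant values of Pomc (54.9 and 43.0 CPM), while the pull-down with most Pomc (97.9 CPM) has no Gh count.

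In the pull-down, Pomc spanned 11.1 to 25.3 CPM on chow (median 13.8) and 18.9 to 77.2 CPM on HFD (median 24.1). Of the chow samples 5 of 7 lay below every HFD sample, and the highest value was again that of sham HFD 1, which is also rich in Gm42418 and in neuron markers. The log2 fold change was 0.93 ± 0.38 (edgeR adjusted p = 1.00). It was 0.48 ± 0.33 without that sample, 0.37 ± 0.36 without sham HFD 1 and 20, and 0.60 ± 0.20 without the 4 samples rich in Gm42418. Npy spanned 4.37 to 13.0 CPM on chow and 2.73 to 6.85 CPM on HFD, with a log2 fold change of −0.48 ± 0.23 (edgeR adjusted p = 1.00), which stood at −0.23 ± 0.19 without sham chow 8. Agrp (−0.48 ± 0.66) and Cartpt (0.31 ± 0.51) had wide errors, and Cartpt turned to −0.22 without sham HFD 1. Again 0 genes passed with edgeR, DESeq2 or limma voom (0% called), and 1.71% of 14059 had an unadjusted p under 0.05 with edgeR.

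Orchiectomy on HFD was then compared with the sham operation on HFD. In the supernatant Agrp spanned 1.22 to 2.18 CPM after orchiectomy (median 1.74) and 1.65 to 4.03 CPM after sham (median 2.55). The groups overlap, but 4 of 6 sham samples lay above every orchiectomised sample. The log2 fold change was −0.68 ± 0.26 (edgeR adjusted p = 0.945), and it lay between −0.79 and −0.55 when any 1 sample was left out. Without sham HFD 1 and 20 it was −0.54 ± 0.29. On chow the supernatants had 1.34 to 4.07 CPM of Agrp, and orchiectomised mice against these gave −0.47 ± 0.25. Npy (−0.19 ± 0.16), Pomc (−0.30 ± 0.25) and Cartpt (−0.15 ± 0.13) were nearer 0, and Pomc turned to 0.24 ± 0.20 without sham HFD 1 and 20. edgeR called 0 genes and DESeq2 called 3, none of them among the 4 (0% called with edgeR), while 3% of 14628 had an unadjusted p under 0.05 with edgeR.

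In the pull-down the orchiectomised samples held the highest Pomc, 21.1 to 97.9 CPM with a median of 33.5 CPM, and the highest Cartpt, 15.3 to 114 CPM with a median of 27.5 CPM. Against sham HFD, Pomc had a log2 fold change of 0.44 ± 0.38, Cartpt 0.69 ± 0.51, Npy 0.19 ± 0.23 and Agrp −0.75 ± 0.71, with edgeR adjusted p values from 0.777 to 0.858. None had an unadjusted p under 0.05, which 6.53% of 14059 genes had, and edgeR called 0 genes (0% called) against 11 with DESeq2. Single samples set the sizes: without sham HFD 1 Pomc stood at 0.89 ± 0.33 and Cartpt at 1.23 ± 0.48, without both sham HFD 1 and 20 Pomc stood at 0.99 ± 0.36 (edgeR adjusted p = 0.455), and without orchiectomised sample 22 they stood at 0.09 ± 0.34 and 0.24 ± 0.47.

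The comparison of orchiectomised mice on HFD with sham mice on chow, which joins both changes, gave the largest difference for Pomc. Its pull-down values were 21.1 to 97.9 CPM against 11.1 to 25.3 CPM, with 5 of 7 orchiectomised samples above every chow sample and 5 of 7 chow samples below every orchiectomised sample. The log2 fold change was 1.37 ± 0.37 (edgeR adjusted p = 0.369), which was 1.04 or more when any 1 sample was left out and was 0.97 ± 0.20 without the 4 samples rich in Gm42418. Of all genes tested there, 11.1% had an unadjusted p under 0.05 and 0.0142% (2 genes) passed, so Pomc did not pass. Markers of several other cells were also higher in the same pull-downs. All 8 endothelial markers were higher (median log2 fold change 1.02, 6 of them at an unadjusted p under 0.05). Their summed level was 397 to 1597 CPM against 263 to 807 CPM on chow. Also higher were 7 of 8 oligodendrocyte markers (median 0.39), 13 of 14 neuron markers (0.16) and all 4 pituitary markers tested (0.53). The other lists were more mixed. Of the markers tested, 6 of 8 of microglia (0.15), 4 of 5 of striatum (0.10), 3 of 4 of thalamus (0.14) and 5 of 8 of tanycytes (0.11) were higher. So were 4 of 12 of astrocytes (−0.03) and 1 of 3 of cortex and hippocampus (−0.08). None of these passed, and their part in the value of Pomc was not tested. Cartpt had a log2 fold change of 1.00 ± 0.49 (edgeR adjusted p = 0.451), of 0.57 ± 0.45 without orchiectomised sample 22 and of 0.50 ± 0.27 without the 4 samples. Npy had −0.29 ± 0.22 and Agrp −1.23 ± 0.67. In the supernatant the same comparison gave 0.34 ± 0.24 for Pomc and 0.12 ± 0.12 for Cartpt, with 2.26% of genes at an unadjusted p under 0.05 and 0% called by edgeR (DESeq2 called 1 gene). These 3 comparisons share groups and are not independent of each other.

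**Figure D4:**
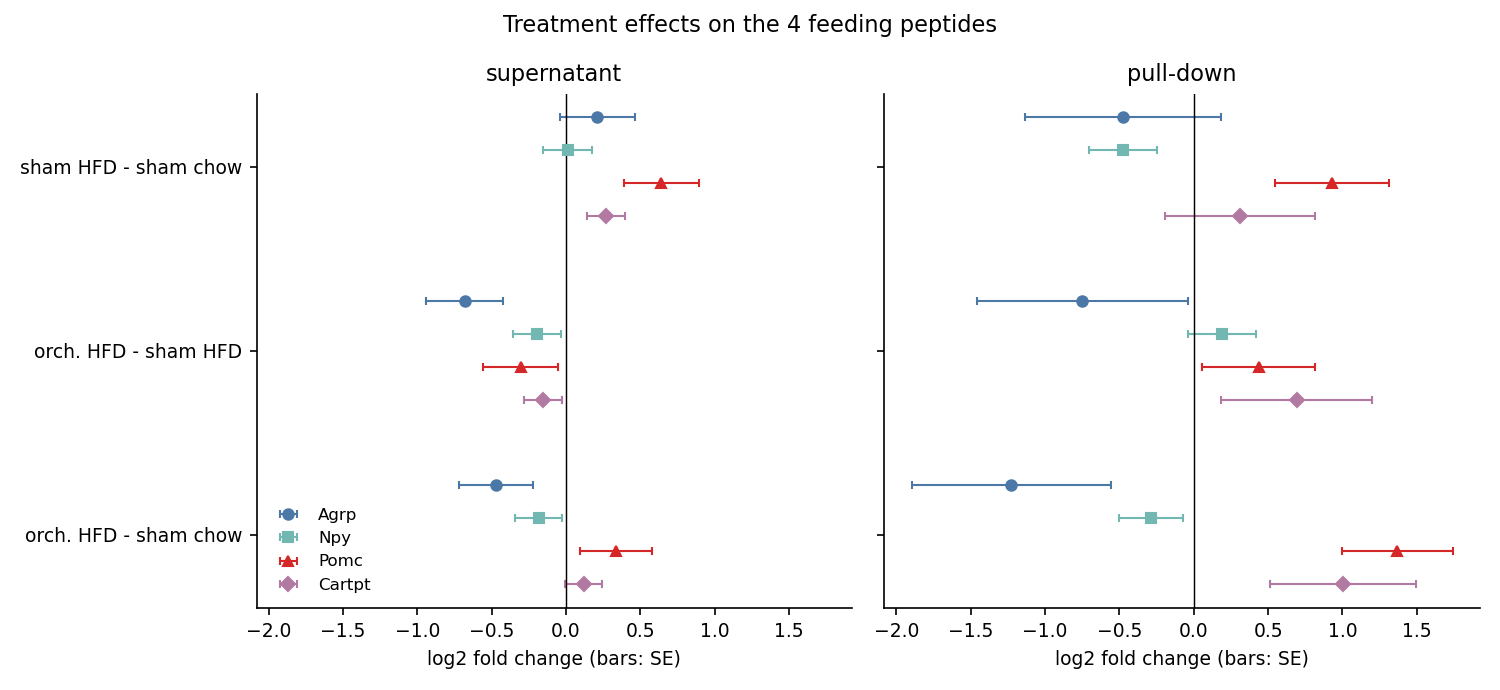
Log2 fold changes with their SE of Agrp, Npy, Pomc and Cartpt for the 3 treatment comparisons in the supernatant (left) and the pull-down (right). None passed adjustment over all genes; the largest is Pomc in orchiectomised HFD against sham chow in the pull-down (1.37 ± 0.37), and the errors are wider in the pull-down than in the supernatant for each of the 4 genes.

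Whether a treatment effect differed between the fractions was tested as an interaction, which no member passed. For the diet the differences (pull-down minus supernatant) were −0.69 ± 0.71 for Agrp, −0.49 ± 0.28 for Npy, 0.30 ± 0.47 for Pomc and 0.04 ± 0.51 for Cartpt, where edgeR called 0% of 15629 genes (DESeq2 called 4 genes) and 2.55% had an unadjusted p under 0.05. For orchiectomy they were −0.08 ± 0.69, 0.38 ± 0.28, 0.72 ± 0.46 and 0.82 ± 0.51 in the same order, where edgeR called 0.0064% (1 gene, Tac2) and 4.43% had an unadjusted p under 0.05. With a replicate block (by sample number) edgeR called 0 genes there. Without sham HFD 1 the orchiectomy interaction was 0.93 ± 0.40 for Pomc and 1.35 ± 0.48 for Cartpt, with edgeR adjusted p values of 0.547 and 0.515.

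Tac2, the neurokinin B gene of other arcuate neurons, was the only gene of the 6 function lists to pass in a treatment comparison. Its pull-down level was 1.51 to 12.0 CPM in orchiectomised mice, 0.532 to 2.68 CPM in sham mice on HFD and 0.438 to 1.48 CPM on chow. Against chow it rose by a log2 fold change of 3.03 ± 0.43 (edgeR adjusted p = 0.00312), and its orchiectomy effect was higher in the pull-down than in the supernatant by 2.84 ± 0.48 (edgeR adjusted p = 0.00978). That second call was lost with limma voom, with a replicate block (by sample number) and without the 4 samples rich in Gm42418. It was also lost when any 1 of sham HFD 9, 13, 16 and 20 or orchiectomised 11 and 14 was left out. In each of these fits 0 genes were called. The other 23 neuropeptides did not pass, and the 16 tested in the pull-down had a median log2 fold change of −0.01 for diet and 0.25 for orchiectomy, against −0.01 and 0.01 over all genes. None of the 13 genes of processing and secretion, 11 receptors and cofactors, 16 inputs, 13 transcription factors and 8 companions of Agrp passed in any of the 6 treatment comparisons where they were tested. Of these lists 13, 6, 15, 10 and 7 genes were tested in the pull-down and 13, 9, 16, 12 and 7 in the supernatant, in the same order. The 2 of each list with the smallest p were these. Prcp, an enzyme that inactivates alpha-MSH, had 1.86 to 4.01 CPM in the orchiectomised and 1.34 to 2.00 CPM in the chow pull-downs (log2 fold change 0.64 ± 0.19, edgeR adjusted p = 0.369), and Pam, the amidating enzyme, had 0.29 ± 0.14 there. Npy2r had 1.03 ± 0.34 in the same comparison, and Mc3r −0.45 ± 0.18 for orchiectomy in the supernatant. Socs3, a feedback inhibitor of leptin signalling, had −0.66 ± 0.24 for orchiectomy in the supernatant, and the insulin receptor Insr 0.20 ± 0.07 in orchiectomised against chow pull-downs. Nr5a2 had 1.72 ± 0.56 there, and Six6, a hypothalamic homeobox factor, 0.94 ± 0.41 for orchiectomy in the pull-down. Acvr1c had −0.34 ± 0.11 for orchiectomy in the supernatant, and Asb4, a gene of arcuate neurons, 0.82 ± 0.31 in orchiectomised against chow pull-downs.

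Whether samples rich in one peptide were rich in the others was asked within groups, as correlations of log2 CPM after removal of group means (n = 20 per fraction, permutation within groups, two-sided, 20 relations with Benjamini-Hochberg adjustment). In the supernatant Pomc and Cartpt went together (Pearson's r = 0.711, p = 0.00103, adjusted p = 0.00515; Spearman's rho = 0.662, p = 0.00371, adjusted p = 0.0247), with r = 0.732 without the 2 samples farthest from the median. Npy and Cartpt had r = 0.640 (p = 0.00483, adjusted p = 0.0193; rho = 0.684, p = 0.00191, adjusted p = 0.0247; 0.627 without the 2 farthest) and Npy and Pomc r = 0.588 (p = 0.0280, adjusted p = 0.0700; rho = 0.620, p = 0.0126, adjusted p = 0.0420; 0.574 without the 2 farthest), both by permutation. Without sham HFD 1 and 20 these values were 0.716, 0.573 (adjusted p = 0.0640) and 0.611. Agrp, which shares its neurons with Npy, had r = 0.0272 with Npy (p = 0.908; rho = −0.0932, p = 0.694; permutation tests), 0.0483 with Pomc and −0.176 with Cartpt. It is also the gene with the fewest counts.

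The 3 genes that went together shared their pattern with much of the supernatant. Over 10153 genes with a mean of at least 5 CPM, the correlation with Npy exceeded 0.6 in size for 43.7%, with Cartpt for 29.2%, with Pomc for 26.3% and with Agrp for 0.207%. Against the summed neuron markers of the same supernatants, Pomc had r = −0.574 (p = 0.00681, adjusted p = 0.0227; rho = −0.605, p = 0.00525, adjusted p = 0.0262; −0.576 without the 2 farthest), and Npy (−0.470, p = 0.0376, adjusted p = 0.0831; rho = −0.595) and Cartpt (−0.482, p = 0.0416, adjusted p = 0.0831; rho = −0.489) had like signs, by permutation. Without sham HFD 1 and 20 these values were −0.421 for Pomc (p = 0.0964, adjusted p = 0.195; rho = −0.492, adjusted p = 0.124; permutation), −0.410 for Npy and −0.388 for Cartpt, and none of the 3 passed. The relations with the neuron markers were added after the data were seen.

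In the pull-down the relation of Pomc and Cartpt with the neuron markers had the opposite sign, while that between the 2 genes had the same sign as in the supernatant. Pomc and Cartpt went together (r = 0.854, p = 0.00013, adjusted p = 0.0013; rho = 0.544, p = 0.0197, adjusted p = 0.0563; r = 0.708 without the 2 farthest; permutation), and both went with the summed neuron markers, Pomc with r = 0.783 (p = 0.00083, adjusted p = 0.00515; rho = 0.513, p = 0.0324, adjusted p = 0.0809) and Cartpt with r = 0.869 (p = 4e-05, adjusted p = 0.0008; rho = 0.672, p = 0.00273, adjusted p = 0.0247). The 2 relations had r = 0.658 and 0.784 without the 2 farthest samples. The 4 pull-downs rich in Gm42418 weigh on this: they had 24.7 to 97.9 CPM of Pomc, 46.2 to 114 CPM of Cartpt and 1141 to 1429 CPM of neuron markers, and the other 16 had 11.1 to 37.0, 10.2 to 35.9 and 774 to 1080. Within those 16, the r of Pomc and Cartpt was 0.440 (p = 0.164, adjusted p = 0.410, permutation), that of Pomc with neuron markers 0.188 (p = 0.534) and that of Cartpt with neuron markers 0.480 (p = 0.0868). Within libraries of the same kind, then, the relations did not pass. Endothelial markers were also at 807 to 1597 CPM in the 4 and at 263 to 1312 CPM in the 16. Npy had r = 0.618 with Agrp in the pull-down (p = 0.0210, adjusted p = 0.0601; rho = 0.432; permutation), where sham chow 8 is the highest for both.

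**Figure D5:**
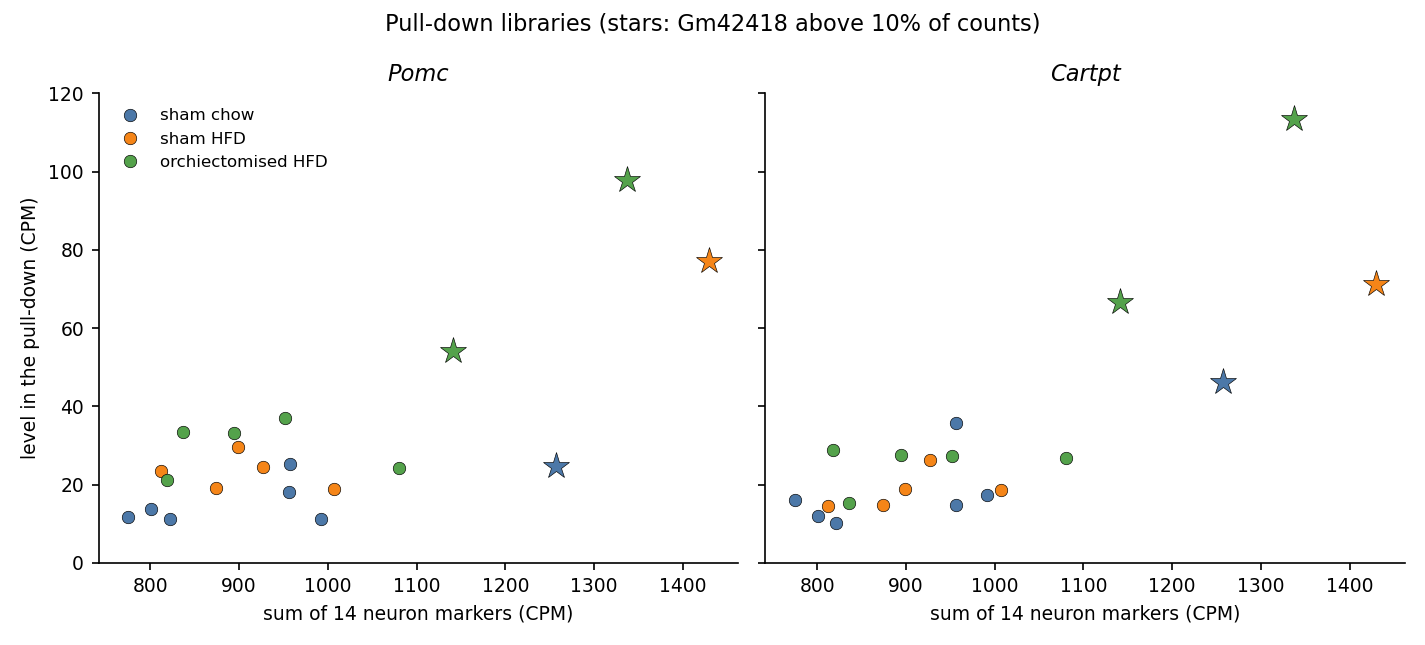
Pull-down level of Pomc (left) and Cartpt (right) in CPM against the sum of 14 neuron markers in the same library, in CPM, coloured by treatment, with the 4 libraries rich in Gm42418 as stars. The stars lie at 1141 to 1429 CPM of neuron markers and include the 3 highest values of Pomc (54.1, 77.2 and 97.9 CPM) and the 4 highest of Cartpt (46.2, 66.7, 71.3 and 114 CPM).

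The genes with the pattern most like each member over the 20 supernatants, by r of log2 CPM with group means removed, were these. For Agrp they were Ythdf1 (0.68), Hmgcs1, an enzyme of cholesterol synthesis (0.68), Pcyt1a (0.67), Racgap1 (0.66) and Fut11 (0.64). For Npy they were Ankrd13a (0.93), Scamp3 (0.91), Med23 (0.90), Rasl10b (0.90) and Cacnb1, a calcium channel subunit (0.90). For Pomc they were Dot1l, a histone methyltransferase (0.85), Rabl3 (0.83), Kcnk13, a potassium channel (0.82), and Spr (0.81). For Cartpt they were Gpn1 (0.89), Mrps27 (0.87), Faim2 (0.87), Zbtb34 (0.85) and Habp4 (0.85). None of the genes named here is a neuropeptide gene. In the pull-down, looked at after the supernatant, the genes most like Pomc were Mllt11 and Pcsk2 (both 0.91), Lpgat1 and Hecw1 (both 0.90) and Synj1 (0.89). Those most like Cartpt were Tmem59l, Syt4 and Slc7a14 (each 0.95) and Gad1 and Rnf150 (both 0.94). Pcsk2 had r = −0.54 with Pomc in the supernatant. Such values were common there: r exceeded 0.6 in size with Pomc for 21.0% and with Cartpt for 29.9% of the pull-down genes compared. The weight of the 4 pull-downs rich in Gm42418 in these values was not tested.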

How the data were processed

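Messages of the pull-down and the supernatant were read with a 3′ tag kit (QuantSeq), per the labels' protocols. Trim Galore 0.6.4, Salmon 1.9.0 and the build GRCm38 are named in the submitters' processing notes. The deposited table holds estimated counts per gene, and 12.7% of its values above 0 carry decimals; they were rounded for the count models. A second deposited table holds a scaled signal that returned the same counts for the 4 genes and was used only for that check. The 4 genes and the gene lists were chosen with earlier results of these data known.

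Counts were fitted with edgeR 4.0.16 (quasi-likelihood, robust, TMM, filterByExpr with a minimum count of 10) in the 20 pull-downs, in the 20 supernatants and in all 40 libraries, with group means and no block. P-values were adjusted over all genes tested, with 0.05 as the threshold, and SE is the log2 fold change divided by the root of its F statistic. The interval of a log2 fold change is a normal 95% interval from that SE. Levels are CPM on TMM library sizes over all 40 libraries. Correlations used log2 CPM with a prior count of 2 and 100000 permutations within groups, and were adjusted over 20 relations, of which 8 (with the neuron markers) were added after the data were seen. Counts of 3 or fewer were treated as at the limit of detection, and such limits cover counting error only, since the tags were counted without molecular identifiers in the files used here. The fits were tested on simulated data. Alternatives were DESeq2 1.42.0, limma 3.58.1 (voom), DESeq2 size factors in edgeR, totals without mitochondrial genes and Gm42418, no filter, leaving out the 4 samples rich in Gm42418 or each sample number in turn, a replicate block and, added after the data were seen, leaving out sham HFD samples 1 and 20. Genes named beside the 4 were those of each list that passed in a treatment comparison or else the 2 with the smallest p, the 3 of each list with the largest change between fractions among those that passed, the 5 most like each gene (1 of those for Pomc is not reported here), and Aldh1l1, Gfap, Snap25 and Gm42418 as checks; Sdc3, Acvr1c between fractions, Avp and the genes most like Pomc and Cartpt in the pull-down were chosen after their values were seen.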

Additional observations from a re-analysis of the deposited data

Results flagged for a closer look

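In 6 of the 24 groups of values (4 genes, 2 fractions, 3 treatments) a single library stood far from the rest of its group by Dixon's gap test. That test flags about 1 of 20 groups of independent, normally spread values. The CPM were used here without logs and the same libraries recur across genes, so the flags are a description and no count against that rate. Sham chow 8 was the highest chow pull-down for Agrp (6.46 CPM, the next 0.832 CPM) and for Npy (13.0 CPM, the next 6.73 CPM), and it is 1 of the 4 pull-downs in which Gm42418 took over 10% of the counts (13.3%). Sham HFD 1, with 18.2% of Gm42418, was the highest HFD pull-down for Pomc (77.2 CPM, the next 29.7 CPM) and for Cartpt (71.3 CPM, the next 26.3 CPM). Orchiectomised sample 22, with 15.1% of Gm42418, was the highest of its pull-downs for Pomc (97.9 CPM, the next 54.1 CPM in sample 11, which has 16.9% of Gm42418). In the supernatant sham chow 19 was the highest chow library for Npy (39.7 CPM, the next 31.8 CPM). The part of Gm42418 in these values was not tested.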

How the results depend on the processing

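No alternative brought any of the 4 genes past the threshold in a treatment comparison or an interaction, and Agrp, Npy and Cartpt stayed lower in the pull-down and past the threshold under each alternative run. Pomc between fractions turned to −0.126 with totals without mitochondrial genes and Gm42418 and to −0.127 without the 4 samples rich in Gm42418; for the results below too, the cause was not tested. Without sham HFD 1 and 20, Cartpt for diet in the pull-down turned to −0.225, Npy for diet in the supernatant to −0.0945 (−0.0213 with limma voom) and Pomc for orchiectomy in the supernatant to 0.238. The diet-by-fraction value of Agrp turned to 0.293 without the 4 samples rich in Gm42418, and that of Cartpt to −0.145 there, to −0.377 without sham HFD 1 and 20 and to −0.00791 with limma voom; the orchiectomy-by-fraction value of Agrp turned to 0.0212 with totals without mitochondrial genes and Gm42418. With 1 sample left out at a time, the values spanned −0.225 to 0.599 for Cartpt for diet in the pull-down, −0.0725 to 0.0917 for Npy for diet in the supernatant, −0.971 to 0.339 for Agrp and −0.484 to 0.372 for Cartpt for diet by fraction, and −0.424 to 0.201 for Agrp for orchiectomy by fraction. Agrp was too low to be tested in the pull-down fit in 10 of the 20 fits that leave out 1 sample and in that without the 4 samples rich in Gm42418.

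Counts of called genes were small and moved with the tool. For orchiectomy in the pull-down they were 0 with edgeR, 11 with DESeq2, 4 without the 4 samples rich in Gm42418, 1 without sham HFD 1 and 20, and 0 to 5 with 1 sample left out. For orchiectomised HFD against chow they were 2 in the pull-down with edgeR, 12 with DESeq2, 1 with limma voom and 2 to 4 with 1 sample left out, and 0, with DESeq2 1 and 0 to 2 with 1 left out, in the supernatant. For orchiectomy in the supernatant DESeq2 called 3, and for diet by fraction 4. For orchiectomy by fraction the count of 1 became 6 with DESeq2, 0 with limma voom, 0 without the 4 samples and 0 to 2 with 1 left out.

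Sample numbers are shared by the fractions, but the labels do not say that a number is 1 mouse, so the main fits had no block. The pull-down and supernatant of a number deviated together with r over 0.1 in 5 of 20 pairs (−0.0688 to 0.153, median 0.0326). Among the 6 or 7 supernatants of the same treatment, 10 of 20 pull-downs correlated best with that of their own number. That is more than unrelated numbers would give on average, so the numbers may pair the samples. Fraction and interaction tests without a block treat such libraries as independent. A replicate block gave Agrp −1.52, Npy −2.48, Cartpt −2.04 and Pomc 0.13 between fractions, turned Cartpt for diet by fraction to −0.00156, and left 0 genes called for orchiectomy by fraction.

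Of the correlations in the supernatant, those of Agrp turned to −0.0909 with Npy and −0.182 with Pomc without sham HFD 1 and 20 and to 0.197 with Cartpt relative to the neuron markers. Npy with Pomc rose to 0.755 relative to the neuron markers. There the same sum was subtracted from both genes, and both had a negative r with it, so a higher r can come from the subtraction alone. The r of Npy with Cartpt fell short at 0.527 with group means kept and 0.573 without sham HFD 1 and 20. Its rho passed in both settings by permutation, at 0.577 (adjusted p = 0.0351) and 0.701 (adjusted p = 0.0437). In the pull-down, relative to the neuron markers, Agrp with Pomc turned to −0.0671, Npy with Pomc to −0.152 and Npy with Cartpt to −0.217. Without the 4 samples rich in Gm42418 these 3 were −0.237, −0.229 and −0.389, Agrp with Cartpt was −0.198, and Pomc with Cartpt fell short at 0.440. Depth limits Agrp most, with under 10 counts in 13 of 20 pull-downs.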
